A study of Rattus norvegicus with 23 samples.

Results

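The comparison described here is that of the α1ACT line with the empty-vector line at 6 h after splitting, in rat PC12 cells. Its members were chosen by their labels alone: the 3 libraries of the α1ACT line and the 2 libraries of the vector line labelled 6 h, which is 5 of the 23 libraries of the series. PC12 is a line from a rat pheochromocytoma, a tumour of the adrenal medulla, and is used to study endocrine secretion and neuron-like differentiation. The first line had been transfected with a pcDNA3 vector that expresses α1ACT with a Flag tag and a stretch of 11 glutamines, and the second with pcDNA3 that carries no insert. Both were selected with G418, and stable clones were taken, as the labels' protocols state. α1ACT is a transcription factor made from the mRNA of the calcium channel gene CACNA1A, whose glutamine stretch is expanded in spinocerebellar ataxia type 6. The labels give neither the number of clones behind each line nor whether replicates were separate cultures, so the p-values measure the spread between these libraries, which may be technical, and a difference between lines cannot be told apart from one between clones. Small RNA from a miRNA-enriched fraction was sequenced, so α1ACT itself was not measured. The other 18 libraries (24 h, 3 d and 10 d, 3 per line) entered through the shared estimate of the spread and in the comparison with later times.

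MicroRNAs (miRNAs) are cut from hairpin transcripts, and either strand of the hairpin's stem (the 5p or the 3p arm) can be loaded into an Argonaute protein. The loaded arm finds target mRNAs mainly through its seed, bases 2 to 8, and lowers their translation and stability, so miRNAs that share a seed can share many targets. Neighbouring hairpins are often cut from 1 transcript, and neuroendocrine cells are known for high miR-375 and miR-7.

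The mature sequences of the miRNAs on which the description turns are given 5′ to 3′, as RefSeq has them on assembly GRCr8, with the seed in capitals. They are set in order of shared seed, because the miRNAs with the smallest p-values at 6 h included 3 pairs that share one. The first pair is miR-99b and miR-100, and the second miR-125a and miR-125b.
miR-99b-5p: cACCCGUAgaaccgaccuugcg
miR-100-5p: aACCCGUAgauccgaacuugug
miR-125a-5p: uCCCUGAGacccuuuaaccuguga
miR-125b-5p: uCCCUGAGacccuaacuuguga
miR-34a-5p: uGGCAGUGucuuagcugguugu
miR-34c-5p: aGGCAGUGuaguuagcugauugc
miR-181a-5p: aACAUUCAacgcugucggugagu
miR-708-3p: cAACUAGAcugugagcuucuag
miR-25-3p: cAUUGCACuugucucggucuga
miR-25-5p: aGGCGGAGacacgggcaauugc
miR-143-3p: uGAGAUGAagcacuguagcuca
Compared from the 5′ end, miR-99b-5p and miR-100-5p differ at 4 of 22 positions (C1A, A11U, C16A and C21U, with the base of miR-99b-5p first), all outside the seed. miR-125a-5p and miR-125b-5p differ at 7 of the 22 positions compared, all downstream of the seed. Reads of such pairs can therefore be told apart only outside the seed. Mature sequences were found for 248 of the 269 miRNAs tested.

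The 5 libraries held between 1850263 and 2300181 counts, and the 10 most abundant entries took 68.7% to 71.4% of them. Levels are given as CPM, counts relative to the library size after TMM scaling (trimmed mean of M values). The line's neuroendocrine markers were uneven. miR-375-3p stood at 130883 and 154070.0 CPM in the vector libraries and between 124756 and 135411 CPM in the α1ACT libraries, and miR-182 and miR-183-5p were abundant too. miR-7a-5p, in contrast, lay between 2.25 and 10.4 CPM, and miR-7b was at 0 in 4 of the 5 libraries. Markers of muscle and blood summed to at most 17.3 CPM and 6.32 CPM, respectively. Other types were not as low. Epithelial markers summed to 420 to 446 CPM in the vector line and 339 to 401 CPM in the α1ACT line. Glial markers summed to 390 to 443 CPM and 444 to 509 CPM, and mesenchymal and endothelial ones to 775 to 1148 CPM and 552 to 785 CPM, in the same order. The α1ACT replicates were not alike. Over 221 miRNAs, replicate 2 lay nearer to the vector mean than to the mean of replicates 1 and 3 for 143 (64.7%). Its root mean square log2 distance was 0.305 and 0.313 to the vector libraries, against 0.393 and 0.423 to its own replicates, which lay 0.252 from each other. Results that rest on this library are therefore also given without it. Because it was singled out for lying near the vector libraries, leaving it out favours larger differences and smaller p-values. Values without it are thus no independent support for a difference between the lines. A second deposited table, whose name points to another counting tool, appears to have replicate 2 of the vector line exchanged between 6 h and 10 d. In the table used, vector 6 h replicate 2 lay nearest to vector 6 h replicate 1 among the vector libraries (0.313).

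No miRNA passed the test for a difference between the lines at 6 h. Of 269 miRNAs tested with edgeR's quasi-likelihood test, 0 (0%) had a Benjamini-Hochberg adjusted p under 0.05, and 30 (11.2%) had an unadjusted p under 0.05. Of these 30, 19 were higher (7.06% of all tested) and 11 lower (4.09%) in the α1ACT line. DESeq2 called 3, and limma-voom called 0. Without α1ACT replicate 2 edgeR called 7 (2.6%): miR-125a-5p, miR-125b-5p, miR-181a-5p, miR-34c-5p, miR-25-5p and miR-423-5p higher, and miR-25-3p lower. The 3 α1ACT libraries all lay above both vector libraries for 40 miRNAs (14.9%) and below both for 35 (13%), together 75 (27.9%). The median log2 fold change over all 269 was 0.03 and the median size 0.20, near the median standard error of 0.21. Upper-quartile scaling moved that median to 0.22, and with it the unadjusted count to 57 higher and 1 lower. Under that scaling several miRNAs with negative values below turned positive, among them let-7e-5p, miR-99b-3p, miR-181c-3p, miR-181d-5p, miR-30a-5p, miR-182 and miR-375-3p. Precision depended on level: the median standard error was 0.18 for the 223 miRNAs at 10 CPM or more and 0.57 for the rest. Differences described below are log2 fold changes of α1ACT over vector with standard errors from that edgeR fit, and none of them passed the adjusted threshold in it.

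**Figure D1:**
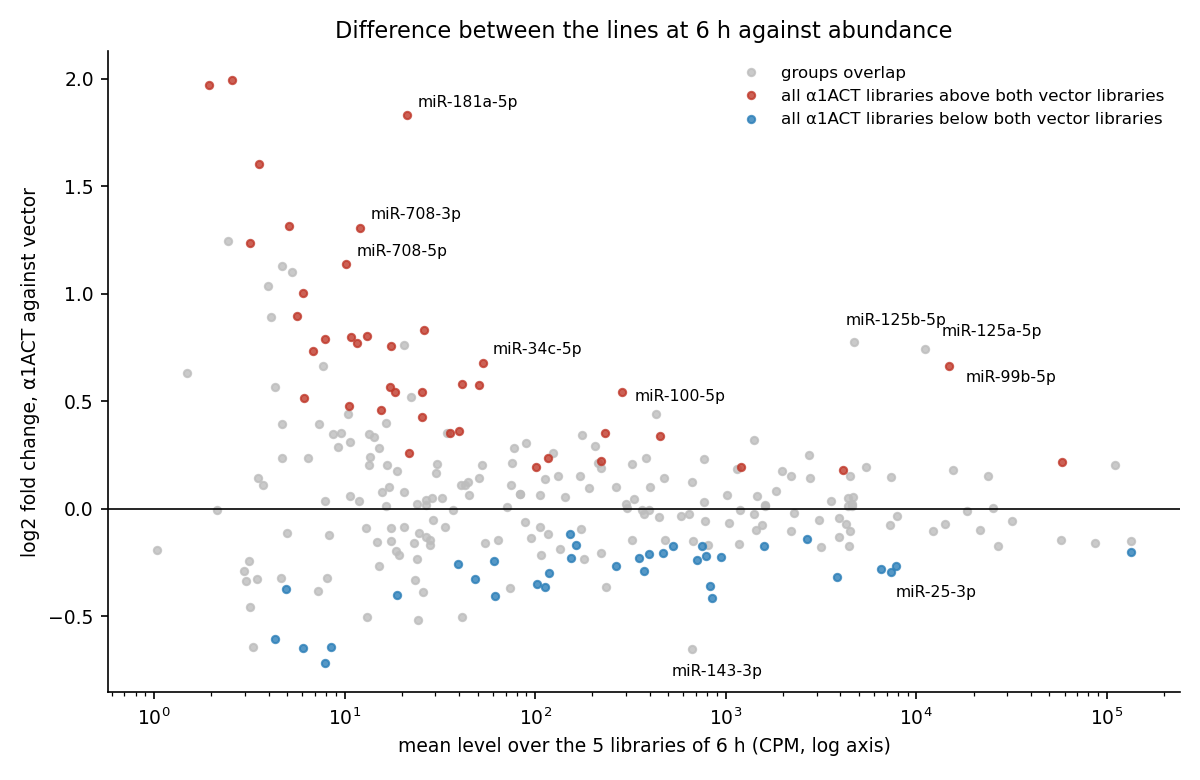
Log2 fold change of α1ACT over vector at 6 h (vertical axis) against the mean level over the 5 libraries (CPM, log axis), 1 point per tested miRNA, leaving out let-7c-2-3p with let-7a-1-3p. Red points (40) have all α1ACT libraries above both vector libraries and blue points (35) all below, and miR-125b-5p, miR-125a-5p and miR-99b-5p stand apart among the abundant miRNAs to the right.

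The miR-99, miR-100 and miR-125 group held the largest differences among abundant miRNAs. These miRNAs are known for roles in growth control, with mTOR as a target of the miR-99 and miR-100 seed, and for their expression during neuronal differentiation. miR-99b-5p stood at 11551 and 10433 CPM in the vector libraries and at 20178, 12850.5 and 19283 CPM in the α1ACT libraries, so the groups did not overlap. Its log2 fold change was 0.67 ± 0.23 (SE; edgeR adjusted p = 0.414), or 1.59-fold, and 0.84 without α1ACT replicate 2 (adjusted p = 0.0578). miR-100-5p, with the same seed at a far lower level, had 252 and 198 CPM against 349, 263 and 371 CPM, again with no overlap. Its log2 fold change was 0.54 ± 0.24 (adjusted p = 0.414 with edgeR).

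miR-125b-5p had 3717 and 2891 CPM in the vector libraries and 6947, 3316 and 6726 CPM in the α1ACT libraries. Replicates 1 and 3 lay well above both vector libraries, while replicate 2 lay between them. The log2 fold change was 0.78 ± 0.23 (edgeR adjusted p = 0.223). miR-125a-5p showed the same order of libraries, with 9243 and 6526 CPM against 16906, 7364 and 15344 CPM. Its log2 fold change was 0.74 ± 0.23 (adjusted p = 0.295 with edgeR). Without replicate 2 the log2 fold change of miR-125b-5p was 1.05, that of miR-125a-5p was 1.03, and the edgeR adjusted p of each was 7.41e-05. As a whole the group summed to 25635 and 20958 CPM in the vector libraries and to 45420, 24673 and 42816 CPM in the α1ACT libraries, which is 2.08% to 2.62% against 2.63% to 4.69% of counts. Of its 8 tested members 6 had a positive log2 fold change (54.6% of all miRNAs did) and 4 an unadjusted p under 0.05 (7.06% of all, on the higher side), all 4 higher and all 5p arms. The group's median was 0.39, against 0.03 for all miRNAs tested, and 0.62 without α1ACT replicate 2.

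The hairpins of miR-99b, let-7e and miR-125a are neighbours in RefSeq, inside the gene Spaca6, but the difference was not shared by everything cut from that stretch. let-7e-5p, from the middle hairpin, had 14637 and 14506 CPM against 14164, 12060.5 and 15358 CPM, with a log2 fold change of -0.07 ± 0.19. The opposite arms also had values near 0: miR-99b-3p had -0.12 ± 0.15, and miR-125a-3p 0.01 ± 0.16, a sign that turned under several settings. let-7e-3p, at about 10.6 CPM, had 0.48 ± 0.34. Among the neighbours of the second cluster (miR-100, let-7a-2 and miR-125b-1), miR-125b-1-3p had 679 and 714 CPM against 866, 679.6 and 908 CPM. Its log2 fold change was 0.23 ± 0.12. let-7a-5p, which let-7a-2 shares with let-7a-1, had -0.10 ± 0.16 with overlapping groups.

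**Figure D2:**
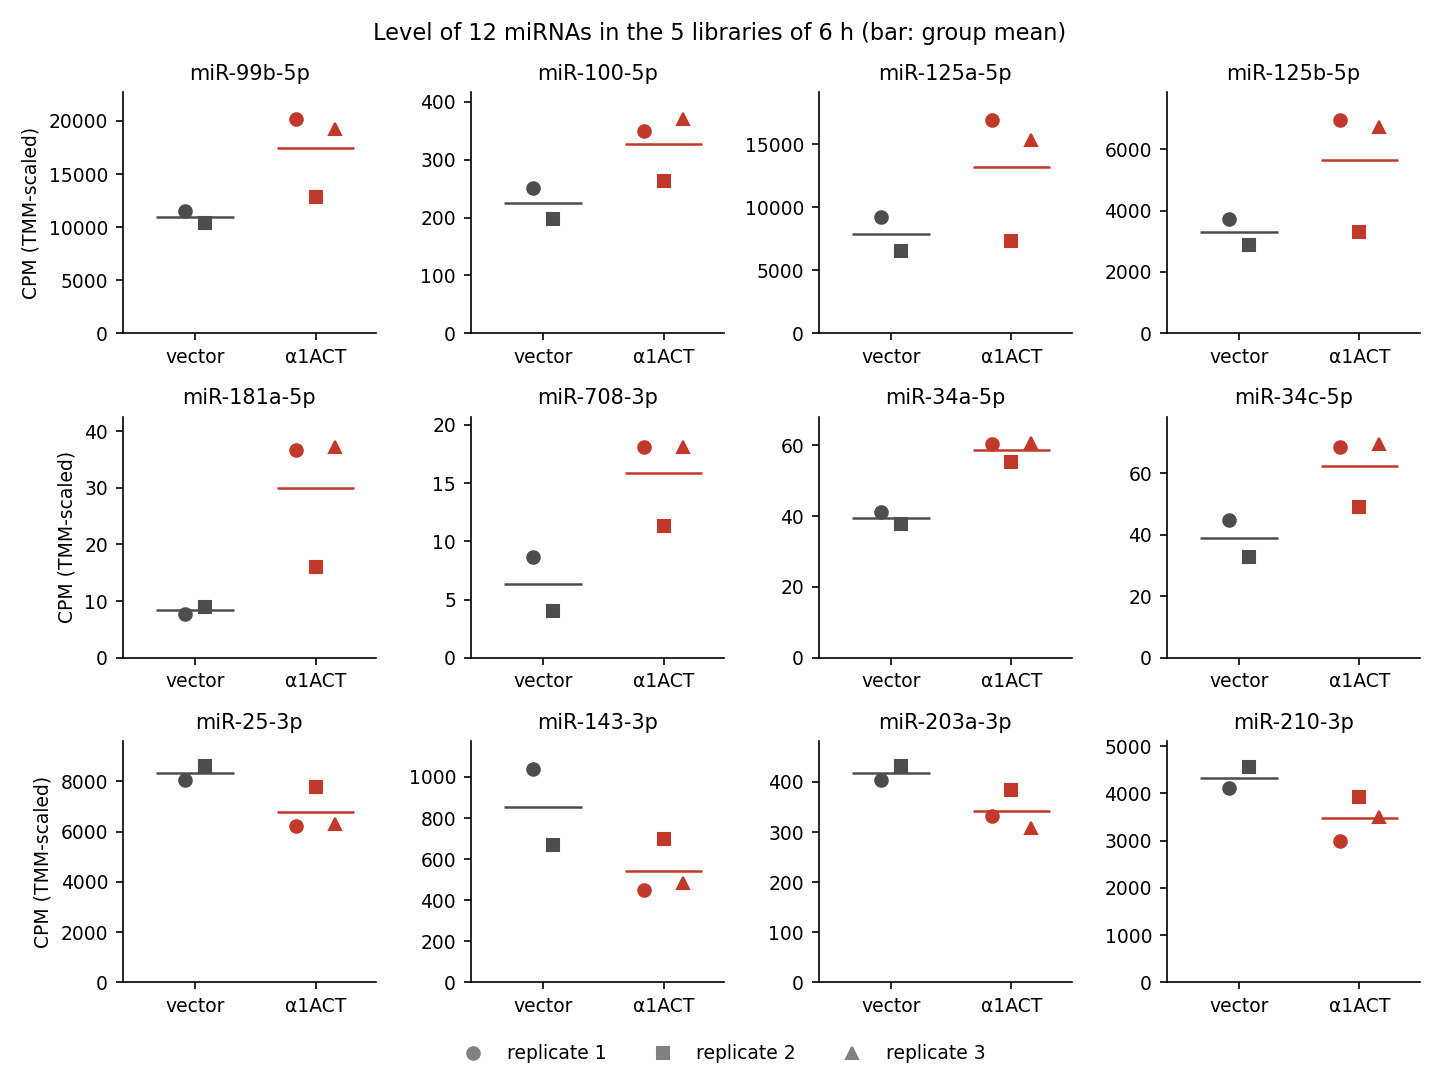
Level of 12 miRNAs in each library of 6 h (vertical axis, TMM-scaled CPM, from 0), with vector in grey, α1ACT in red, a marker shape per replicate number and a bar at each group mean. In each panel the α1ACT library nearest to the vector mean is replicate 2, while for miR-125a-5p, miR-125b-5p and miR-143-3p the groups overlap.

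The smallest p-value at 6 h belonged to miR-181a-5p, a miRNA known from lymphocyte development and also expressed in neurons. It had 7.77 and 9.01 CPM in the vector libraries and 36.7, 16 and 37.2 CPM in the α1ACT libraries. The log2 fold change was 1.83 ± 0.43 (edgeR adjusted p = 0.0744), or 3.56-fold, and 2.13 without replicate 2 (adjusted p = 0.0021). It passed the adjusted threshold in 7 of 22 alternative settings, and over all of them its log2 fold change lay between 1.67 and 2.13 and its adjusted p between 2.27e-05 and 0.8. miR-181b-5p, whose hairpins pair with those of miR-181a at both places in the genome, was near the limit of counting, with 0.864 and 2.25 CPM against 4.21, 3.78 and 6.57 CPM (log2 fold change 1.60 ± 0.87, edgeR adjusted p = 0.446). The more abundant family members come from another cluster. miR-181c-5p had 7349.8 and 6556 CPM against 7941, 7024 and 8127 CPM and a log2 fold change of 0.15 ± 0.11. With the second table this was -0.23 as its columns are named and 0.14 once the 2 vector columns that appear exchanged were put back. The log2 fold change of miR-181d-5p was -0.02 ± 0.11, and miR-181c-3p had -0.04 ± 0.13. The sum over the family ran from 9375 to 10070.1 CPM in the vector line and from 9620.0 to 10946 CPM in the α1ACT line. Of its 5 tested members 1 had an unadjusted p under 0.05 (11.2% of all miRNAs did), and their median was 0.15 against 0.03 for all.

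Both miR-34 miRNAs tested were higher in every α1ACT library. The miR-34 family is induced by p53 and restrains the cell cycle, and miR-34b and miR-34c are also found in neurons and ciliated cells. miR-34c-5p had 44.9 and 32.9 CPM in the vector libraries and 68.7, 49.1 and 69.5 CPM in the α1ACT libraries. Its log2 fold change was 0.68 ± 0.20 (edgeR adjusted p = 0.22), and 0.83 without α1ACT replicate 2 (adjusted p = 0.0179). miR-34a-5p had 41 and 37.8 CPM against 60.3, 55.2 and 60.7 CPM, and here replicate 2 lay close to the other α1ACT libraries. Its log2 fold change was 0.57 ± 0.21 (adjusted p = 0.414 with edgeR). The other p53-induced miRNAs tested differed less: miR-192-5p had 3772 and 3859 CPM against 4202, 4205 and 4559 CPM (0.18 ± 0.10). miR-194-5p, from the same cluster, had 0.10 ± 0.14 with overlapping groups. All 4 tested members of the list were thus positive (54.6% of all miRNAs were), 2 had an unadjusted p under 0.05 on the higher side (7.06% of all), and their median was 0.38 against 0.03 for all.

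miR-708, whose hairpin lies within Tenm4, a gene of neuronal connectivity, was low but higher in the α1ACT line on both arms. miR-708-3p had 8.64 and 4.06 CPM against 18.1, 11.3 and 18.1 CPM, a log2 fold change of 1.31 ± 0.49 (edgeR adjusted p = 0.414). miR-708-5p had 8.21 and 3.6 CPM against 18.5, 8.5 and 12 CPM, a log2 fold change of 1.14 ± 0.54 (edgeR adjusted p = 0.42). On each arm α1ACT replicate 2 was the lowest of the 3 α1ACT libraries, and for the 5p arm it lay just above vector replicate 1.

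Of 13 tested members of the neuronal list, 10 had a positive log2 fold change (54.6% of all miRNAs did) and 2 were higher at an unadjusted p under 0.05 (7.06% of all), and the median was 0.26 against 0.03 for all. miR-129-5p, a miRNA of neurons and endocrine cells, had 19 and 16.2 CPM against 24.4, 26 and 44.3 CPM, with α1ACT replicate 3 well above the others (0.83 ± 0.36, edgeR adjusted p = 0.414). miR-138-1-3p had 3.02 and 4.51 CPM against 8.43, 6.61 and 7.66 CPM (1.00 ± 0.43, edgeR adjusted p = 0.414). The abundant arm of that miRNA, miR-138-5p, which acts in dendritic spines, had 1047 and 1167 CPM against 1293, 1217 and 1293 CPM (0.20 ± 0.13). miR-9a-5p, a miRNA of neural progenitors, overlapped between the lines with 24.6 and 34.2 CPM against 29.5, 36.3 and 47.1 CPM (0.35 ± 0.27). miR-137-3p overlapped too (0.26 ± 0.18). miR-124-3p, the most abundant miRNA of mature neurons, was at 0 in 4 of the 5 libraries and at 1.09 CPM in α1ACT replicate 3. Summed over the neuronal markers, the lines spanned the same range, 3702 to 4174 CPM in the vector line and 3856 to 4180 CPM in the α1ACT line. The members with the highest levels were miR-128-3p (1484 to 1617 CPM), miR-138-5p and miR-218a-5p (630 to 1049 CPM). The 3 tested members with a negative log2 fold change were miR-128-3p (-0.07 ± 0.10), miR-218a-5p (-0.17 ± 0.18) and miR-128-1-5p (-0.20 ± 0.27).

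Of the other miRNAs that were higher in the α1ACT line, 5 with an unadjusted p under 0.05 are described next. miR-365-3p had 13.4 and 11.3 CPM against 24.4, 14.6 and 23.5 CPM (0.76 ± 0.30). miR-10b-3p, the minor arm of a hairpin in the Hox gene clusters, had 31.1 and 32.9 CPM against 55.6, 34.9 and 53.1 CPM (0.58 ± 0.24), while the abundant arm miR-10b-5p differed by 0.20 ± 0.20. Both of these miRNAs came nearest to the vector libraries in α1ACT replicate 2. Neighbours on 1 transcript, miR-23a and miR-24-2, are known from cell cycle control and muscle. miR-23a-3p had 416 and 359.6 CPM against 539, 434 and 500.2 CPM (0.34 ± 0.15), and miR-24-2-5p had 201 and 197 CPM against 251, 270.0 and 240.3 CPM (0.35 ± 0.15). For miR-24-2-5p replicate 2 was the highest of the α1ACT libraries. The rest of that cluster differed less or the other way, with overlapping groups. From miR-27a, the hairpin between them, miR-27a-3p had 0.01 ± 0.12 and miR-27a-5p -0.39 ± 0.32. miR-24-3p, which miR-24-2 shares with miR-24-1, had 0.17 ± 0.15. miR-320-3p, which is made without the Microprocessor complex, had 376 and 329 CPM against 565, 359 and 513 CPM, so that replicate 2 lay between the vector libraries (0.44 ± 0.19). miR-423-5p, next by p, had 1336 and 1118 CPM against 1834, 1079 and 1686 CPM, and replicate 2 was below both vector libraries (0.32 ± 0.16). Without replicate 2 miR-423-5p had 0.52, with an edgeR adjusted p of 0.0335. With all libraries the edgeR adjusted p was 0.446 for miR-423-5p and 0.414 for each of the 5. Without replicate 2 the log2 fold change of miR-365-3p was 0.96, that of miR-10b-3p 0.76 and that of miR-320-3p 0.61, each with an edgeR adjusted p of 0.0698.

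Among the miRNAs lower in the α1ACT line, differences were smaller. miR-25-3p, of the miR-106b, miR-93 and miR-25 cluster inside the replication gene Mcm7, had the smallest p of them. It had 8050.3 and 8607 CPM in the vector libraries and 6241, 7786 and 6318 CPM in the α1ACT libraries, and the groups did not overlap. Its log2 fold change was -0.30 ± 0.11 (edgeR adjusted p = 0.414), and -0.41 without α1ACT replicate 2 (adjusted p = 0.0335). miR-143-3p, a miRNA of smooth muscle and fibroblasts, had the largest difference of the 11, with 1038 and 671 CPM against 452, 698 and 482 CPM. The vector libraries differed from each other by more than the group means did, and replicate 2 lay above the lower of them (-0.65 ± 0.24, edgeR adjusted p = 0.414; -0.87 and 0.0698 without replicate 2). Its partner in smooth muscle, miR-145, was near 0: miR-145-5p had no counts, and miR-145-3p at most 2.16 CPM. miR-143-3p carried nearly all of the mesenchymal and endothelial markers, which summed to 775 and 1148 CPM in the vector line and 552 to 785 CPM in the α1ACT line; their part in other differences was not tested. miR-203a-3p of epithelia had 404 and 431 CPM against 331, 384 and 308 CPM (-0.29 ± 0.12). It was the only negative member of the 4 tested in the epithelial list, whose median was 0.67. The other 3, miR-200b-3p, miR-429 and miR-141-3p, had positive log2 fold changes with overlapping groups. Their levels were low, at 5.28, 4.09 and 10.4 CPM on average, respectively. miR-210-3p, which is induced by hypoxia through HIF1A, had 4108 and 4562 CPM against 2995, 3923 and 3508 CPM (-0.32 ± 0.15, edgeR adjusted p = 0.42). The opposite arm, miR-210-5p, had 0.31 ± 0.23 at 89.0 CPM on average, with overlapping groups.

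The miR-30 family, which restrains mesenchymal and fibrotic programmes in epithelia, lay on the lower side as a group. Of 9 tested members 8 had a negative log2 fold change, 5 had all α1ACT libraries below both vector libraries (13% of all miRNAs did), and 1 was lower at an unadjusted p under 0.05 (4.09% of all), with a median of -0.21. That member, miR-30c-5p, had 7818 and 6777 CPM against 5908, 6292 and 5816 CPM (-0.28 ± 0.13, edgeR adjusted p = 0.42). miR-30a-3p had 1040.1 and 1027 CPM against 866, 910.4 and 879 CPM (-0.22 ± 0.12), and miR-30e-3p had -0.30 ± 0.16. The abundant miR-30a-5p had 64211 and 57425 CPM against 52639.5, 60761 and 51674 CPM, with replicate 2 between the vector libraries (-0.14 ± 0.10). Under upper-quartile scaling the family's median was -0.02.

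Differences with an unadjusted p under 0.05 were seen in 6 more miRNAs that were lower. miR-195-3p, from a family that restrains cyclins, had 282 and 309 CPM against 220.4, 272 and 245 CPM (-0.27 ± 0.12). miR-152-5p had 109.7 and 150.5 CPM against 89.3, 109 and 106 CPM, which left replicate 2 just under the lower vector library (-0.36 ± 0.17). miR-296-3p had 58.7 and 85.6 CPM against 55.2, 55.7 and 52.5 CPM (-0.40 ± 0.18), a gap set mainly by vector replicate 2. Its opposite arm, miR-296-5p, at 5.66 CPM on average, was above both vector libraries in every α1ACT library (0.90 ± 0.52). miR-872-3p had 114 and 121 CPM against 88.5, 89.2 and 98.5 CPM (-0.35 ± 0.17), and here the 3 α1ACT libraries lay close together. let-7d-3p had 984 and 999.9 CPM against 698, 712 and 824 CPM (-0.41 ± 0.19), a value that was 0.018 with the second table as its columns are named and -0.42 once the 2 vector columns that appear exchanged were put back. miR-6329 had 42.8 and 57.7 CPM against 32, 44.4 and 29.6 CPM with overlap (-0.51 ± 0.21). For these 6 lower miRNAs the edgeR adjusted p lay between 0.414 and 0.42. miR-27b-5p, the following one by p, had -0.24 ± 0.12.

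The most abundant miRNAs had small log2 fold changes. miR-375-3p, which restrains secretion in endocrine cells, took 13.7% of the counts at 6 h and had a log2 fold change of -0.15 ± 0.10. miR-27b-3p had 145511 and 143595 CPM against 118543, 131388 and 126981 CPM, so that all α1ACT libraries lay below (-0.20 ± 0.11, edgeR adjusted p = 0.446). miR-10a-5p, the relative of miR-10b-5p, had 9242 and 8233 CPM against 7107, 7272 and 7384 CPM (-0.27 ± 0.17). miR-22-3p had 59677 and 46465 CPM against 63479, 59991 and 61705 CPM (0.22 ± 0.12), with α1ACT replicate 2 just above vector replicate 1 and vector replicate 2 far below. miR-182, another marker of neuroendocrine cells, had -0.06 ± 0.12. The neuroendocrine list split evenly, with 4 of 8 tested members positive, 0 with an unadjusted p under 0.05 and a median of 0.02.

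More families leaned to the lower side. The miR-17-92 cluster and its paralogs, which drive the cell cycle, had 13 of 17 tested members negative, 1 higher and 1 lower at an unadjusted p under 0.05 (7.06% and 4.09% of all), and a median of -0.14. Both of those came from 1 hairpin, miR-25. The miR-15, miR-16, miR-195 and miR-497 family had 6 of 7 negative with a median of -0.21. The families of miR-130, miR-301, miR-148 and miR-152 had 8 of 10 negative, with miR-130b-3p at 822 and 909 CPM against 729, 818 and 684 CPM (-0.22 ± 0.12), and a median of -0.17. The 4 tested mesenchymal and endothelial miRNAs had 3 negative and a median of -0.19. Over all 269 miRNAs 54.6% were positive. Under upper-quartile scaling the medians of the miR-17-92, the miR-148 and the mesenchymal lists turned positive (0.05, 0.03 and 0.01), while the median of all miRNAs there was 0.22.

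**Figure D3:**
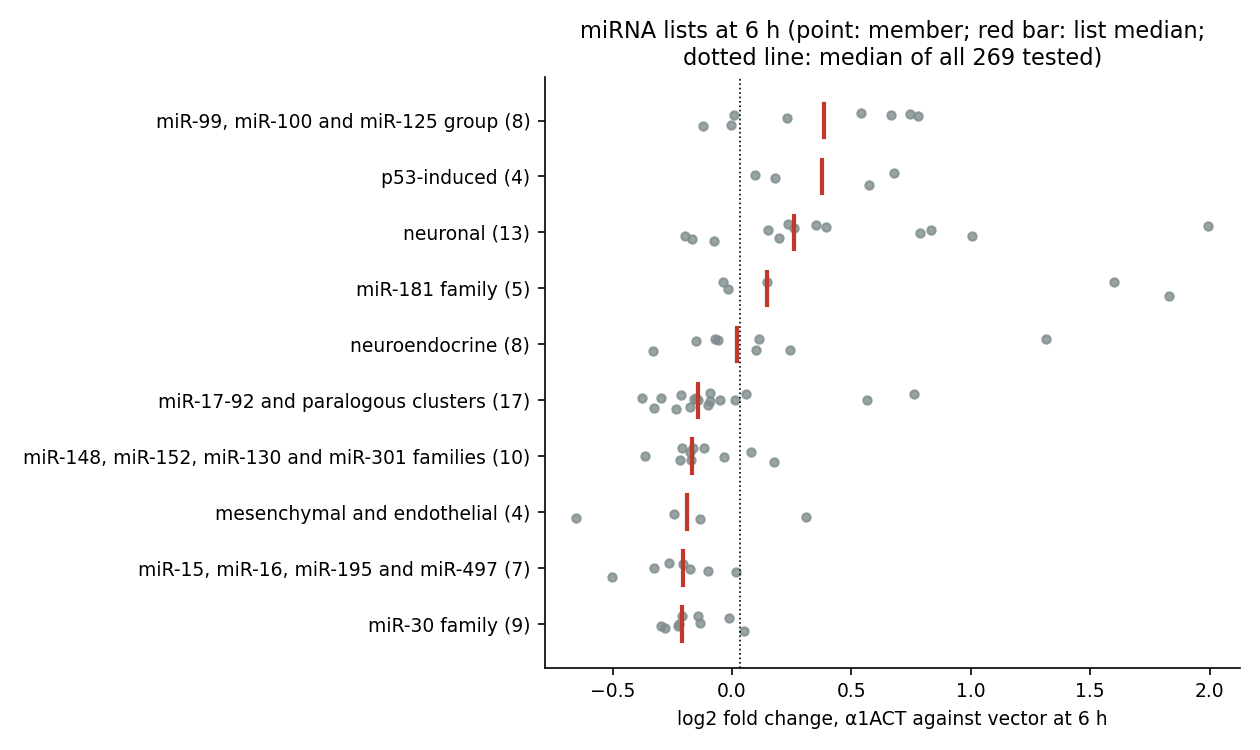
Log2 fold change at 6 h (horizontal axis) of each tested member (grey points, with vertical scatter for legibility only) of 10 miRNA lists, with the list median as a red bar and the median of all 269 miRNAs (0.03) as a dotted line. Among the 10 lists drawn, of 29 made, the miR-99, miR-100 and miR-125 group has the highest median (0.39) and the miR-30 family the lowest (-0.21). Most of them hold members on both sides of 0. Lists not drawn went further: miR-708 (1.22 over 2 tested members), epithelial (0.67 over 4) and the blood-cell and muscle lists (1 member each) above, and miR-10 with miR-196 (-0.27 over 5) below.

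The arms of a hairpin often differed in sign, but mostly by little. Of 84 hairpins with both arms tested, 51 had the same sign on both, and of 64 with both arms at 10 CPM or more, 38 did. The median size of the difference between arms was 0.19 over the 64. The median standard error at that level, 0.18, is that of a single miRNA's log2 fold change. No standard error was estimated for a difference between arms. Groups that did not overlap, in opposite directions on the 2 arms, were seen for 1 of the 84 (miR-296) and 0 of the 64. Across those 64 hairpins the arms' log2 fold changes had a Pearson correlation of 0.32, a description over miRNAs that share libraries. Among those 64 hairpins the arms lay farthest apart for miR-25. Its minor arm, miR-25-5p, had 16 and 13.1 CPM in the vector libraries and 29.9, 11.3 and 32.8 CPM in the α1ACT libraries, with replicate 2 the lowest of all 5 (0.76 ± 0.34, edgeR adjusted p = 0.414). Without replicate 2 it had 1.11 (edgeR adjusted p = 0.0335), opposite in sign to the -0.41 of miR-25-3p. For miR-99b and miR-125a the 5p arm alone was on the higher side, whereas miR-708 had both arms there. The difference between arms was not tested.

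**Figure D4:**
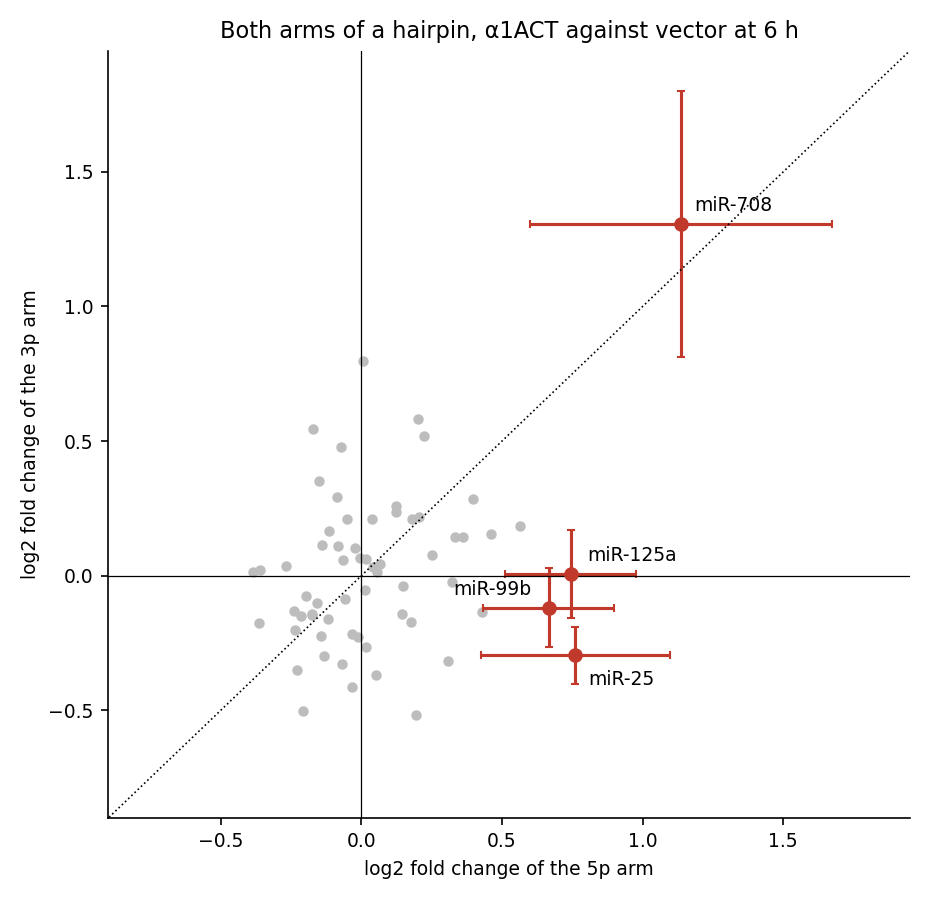
Log2 fold change at 6 h of the 3p arm (vertical axis) against the 5p arm (horizontal axis) for 64 hairpins with both arms at 10 CPM or more, with the line of equal values dotted and ± 1 standard error for the named hairpins in red. miR-708 lies near the line of equal values, while miR-99b, miR-125a and miR-25 are higher on the 5p arm only.

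Whether the difference at 6 h was that of the later times was tested as the log2 fold change at 6 h minus the mean of those at 24 h, 3 d and 10 d, which share no library with it. Of 269 miRNAs 0 (0%) passed the adjusted threshold with edgeR's quasi-likelihood test, and 11 (4.09%) had an unadjusted p under 0.05. The 4 smallest p-values were those of the 5p arms of the miR-99, miR-100 and miR-125 group. miR-99b-5p had 0.67 at 6 h and -0.47 ± 0.20, -0.00 ± 0.21 and -0.66 ± 0.21 at 24 h, 3 d and 10 d, a gap of 1.04 ± 0.26 (edgeR adjusted p = 0.168). miR-100-5p had -0.49, 0.24 and -1.0 at the later times and a gap of 0.96 ± 0.27 (adjusted p = 0.168 with edgeR). For miR-125a-5p the gap was 0.90 ± 0.26 and for miR-125b-5p 0.87 ± 0.25, each with an edgeR adjusted p of 0.168. These 4 were called without α1ACT replicate 2, together with miR-423-5p, and also by DESeq2. Next by p came miR-191a-5p (gap 0.35 ± 0.14, edgeR adjusted p = 0.792) and miR-320-3p (gap 0.49 ± 0.22, adjusted p = 0.994).

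For other miRNAs the gap lay nearer to 0. miR-181a-5p had 1.83 at 6 h and 2.11 ± 0.38, 1.78 ± 0.39 and 1.93 ± 0.35 later, a gap of -0.11 ± 0.48 (edgeR adjusted p = 0.994). miR-708-3p had 1.06, 1.39 and 1.06 later, with a gap of 0.14 ± 0.54, and miR-34c-5p had 0.49, 0.44 and 0.27, with a gap of 0.28 ± 0.22. miR-143-3p had -0.90, -0.83 and -0.67 later, with a gap of 0.15 ± 0.27. miR-25-3p lay between -0.15 and -0.12 later, against -0.30 at 6 h. Across 221 miRNAs the Pearson correlation of the log2 fold changes at 6 h with those at 24 h was 0.58, at 3 d 0.63 and at 10 d 0.38, given as a description over miRNAs that share clones and libraries.

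**Figure D5:**
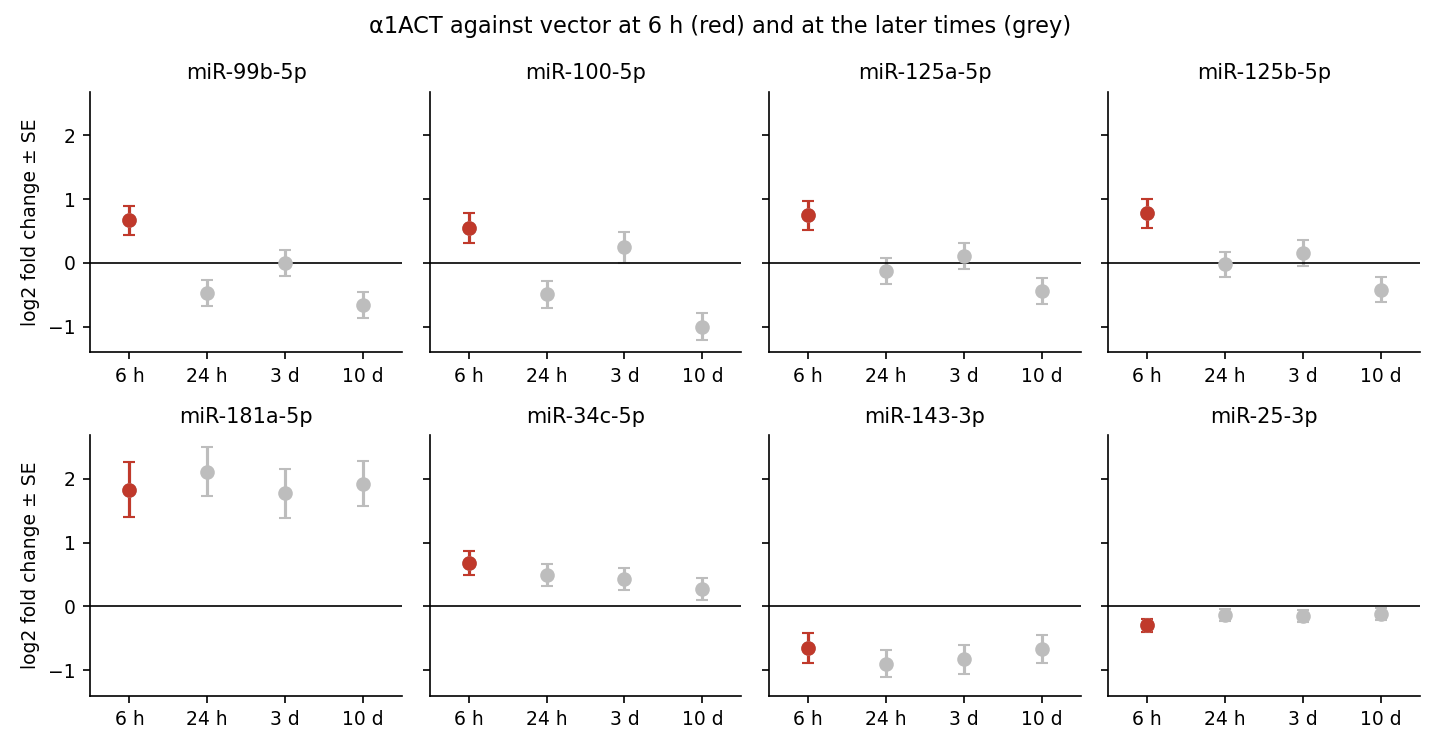
Log2 fold change of α1ACT over vector ± standard error (vertical axis) of 8 miRNAs at 6 h (red, 3 against 2 libraries) and at 24 h, 3 d and 10 d (grey, 3 against 3 libraries). The 4 miRNAs of the miR-99, miR-100 and miR-125 group are above 0 at 6 h and below 0 at 10 d, whereas miR-181a-5p stays between 1.78 and 2.11 and miR-143-3p between -0.90 and -0.65.

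Among seeds held by at least 2 tested miRNAs with a sequence, 4 had the highest median log2 fold changes: ACAUUCA of the miR-181 family (0.87 over 4 members), CCCUGAG of the miR-125 family (0.74 over 3, miR-351-5p included), GGCAGUG of miR-34 (0.63 over 2) and ACCCGUA of miR-99b and miR-100 (0.60 over 2). The members of the first seed were far apart, with miR-181a-5p at 1.83 and the low miR-181b-5p at 1.60 against 0.15 for miR-181c-5p and -0.02 for miR-181d-5p. Its rank rested on miR-181b-5p. Counting only members at 10 CPM or more, its median was 0.15 over 3 members. Several seeds outside those 4 then had a higher median, from AACAGUC (0.148 over 2) up to UCACAUU, the seed of miR-23a-3p (0.24 over 2). Base composition and length showed little relation to the difference. Over 205 miRNAs Spearman's rho of the log2 fold change was 0.11 with GC content, 0.02 with length and -0.23 with the log2 mean level, as a description.

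One pair of entries cannot be read apart. The entries let-7c-2-3p and let-7a-1-3p have the same mature sequence, and the deposited counts give each library's reads to only 1 of the 2 names. The sequence is shown because a call turns on it.
let-7a-1-3p: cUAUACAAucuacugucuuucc
let-7c-2-3p: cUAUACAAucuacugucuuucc
Vector replicate 1 had 161 counts under let-7c-2-3p and 0 under let-7a-1-3p, while the other 4 libraries had 105 to 153 counts under let-7a-1-3p and 0 under let-7c-2-3p. No fold change is therefore given for either, and the DESeq2 call of let-7c-2-3p rests on this assignment: with the entries summed, DESeq2 called 2, miR-125b-5p and miR-181a-5p.

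Entries too low to test held little. The 269 tested miRNAs took 99.99% of the counts at 6 h. Of the other 144 entries 63 had 0 counts in all 5 libraries, and none had more than 30 counts over the 5. Counts in the α1ACT line alone were seen for 29 of these entries and in the vector line alone for 13, with 3 libraries against 2.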

How the data were processed

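Small RNA of 23 PC12 libraries was sequenced on an Illumina instrument after a small RNA preparation, per the labels' protocols. The authors deposited 2 tables of whole-number read counts per mature miRNA, whose names point to sRNAbench (413 entries, used here) and Chimira (627 entries, an alternative), and edgeR is named per the submitters' processing notes. Tool versions, the miRBase release, the genome build and the aligner were not given in the sources used here. Those columns named control were read as the vector line and those named WT as the α1ACT line, an assumption. Another 12 columns in each table belong to none of these samples and were not used. An entry with no name (0 counts, 0% of the total) was left out.

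The main test used edgeR 4.0.16 (R 4.3.3): filterByExpr (269 entries kept), TMM scaling, 1 mean per group over 23 libraries in 8 groups, robust quasi-likelihood dispersions (common biological coefficient of variation 16.1%), Benjamini-Hochberg adjustment over all 269, called under 0.05. The standard error of a log2 fold change is its size over the root of F. DESeq2 1.42.0, limma-voom (limma 3.58.1), the second table, other scalings and filters, a replicate block, the 5 libraries alone and leaving out each library were alternatives. Leaving out both vector libraries whose names appear exchanged, leaving out the shallowest 3 d library and summing the identical let-7 entries were chosen after seeing the data. The members, the 29 lists and the tests were chosen with earlier results of these data known.

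Named were, where the 6 h libraries averaged 10 CPM or more, the 12 with the smallest p in each direction, the 10 most abundant, those called in any setting, the 6 with the smallest p against later times, opposite arms, and up to 4 per list. miR-330-3p, miR-124-3p, miR-145, miR-137-3p, miR-9a-5p, miR-128-3p, miR-218a-5p, miR-351-5p, let-7a-5p and the arms of let-7e, miR-27a and miR-181d were named for contrast. They were chosen after their values were seen. No set test was made. Replicates were checked for duplicate libraries (chi-square per degree of freedom 22.8 to 111), and the steps were tested on simulated data. With no molecular identifiers in the reads, a count is not an independent molecule. Hairpin neighbours (within 10 kb) and hosts come from RefSeq on GRCr8, for names only and without strand.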

Additional observations from a re-analysis of the deposited data

Results flagged for a closer look

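Values of 3 miRNAs stood out because every α1ACT library lay above both vector libraries at 6 h and below all vector libraries at a later time. These pairwise gaps were not themselves tested; the test against the mean of the later times gave an edgeR adjusted p of 0.168 for both miR-99b-5p and miR-100-5p and 0.994 for miR-330-3p.

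miR-99b-5p lay at 4701 to 6552 CPM in the α1ACT line against 7210.4 to 9627 CPM in the vector line at 24 h, a log2 fold change 1.14 below that at 6 h. At 10 d it lay at 5575 to 6662 CPM against 7647 to 12862 CPM, a gap of 1.33. miR-100-5p lay at 112 to 177 CPM against 197 to 247 CPM at 24 h (gap 1.04) and at 88.2 to 104 CPM against 122 to 232 CPM at 10 d (gap 1.54). miR-330-3p, which was named after its values were seen, had 8.21 and 6.76 CPM against 13.1, 10.4 and 15.9 CPM at 6 h (0.80 ± 0.42) and 6.77 to 8.55 CPM in the vector line against 4.23 to 5.94 CPM in the α1ACT line at 10 d, a gap of 1.32. At these levels counting error is large.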

How the results depend on the processing

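Of the single-miRNA values recomputed under these settings, 1174 kept their direction and side of the threshold, 17 newly passed it and 34 changed sign. The cause of a change was not tested unless the setting itself shows it. Calls at 6 h numbered 0 with both tables (names exchanged or not), RLE scaling, library totals, the stricter filter, limma-voom and the fit without the robust option. They numbered 2 with upper-quartile scaling (miR-181a-5p and miR-34c-5p), 1 with no low-count filter (miR-181a-5p), 2 with the 5 libraries alone (miR-181a-5p and miR-99b-5p), 3 with DESeq2 and 2 with DESeq2 after summing the identical let-7 entries. Leaving out each library gave 0 to 7 calls, with all 7 in the fit without α1ACT replicate 2, and where 1 vector library was left the lone sample is assumed to vary like the other groups. The count at an unadjusted p under 0.05 ranged from 10 (without vector replicate 2) to 46 (without α1ACT replicate 2), with 16 and 17 without α1ACT replicates 1 and 3; it was 58 with upper-quartile scaling and 8 without both vector libraries whose names appear exchanged. Against later times calls numbered 2 with the Chimira table, 2 with the sRNAbench columns exchanged, 5 with DESeq2, 4 with DESeq2 after summing those let-7 entries, and 0 to 5 when each library was left out. Groups did not overlap for 76 higher and 7 lower miRNAs with upper-quartile scaling, 21 lower with library totals and 23 higher with the stricter filter. With the replicate number as a block (replicate block) 1 miRNA was called, miR-181a-5p; same-numbered libraries correlated by 0.157 and 0.315 over 2 shared numbers, which does not establish a pairing.

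Upper-quartile scaling turned let-7e-5p to 0.13, miR-181c-3p to 0.16, miR-181d-5p to 0.18, miR-182 to 0.14, miR-30a-5p to 0.041, miR-375-3p to 0.049 and miR-99b-3p to 0.068. The Chimira table with its columns as named turned let-7d-3p to 0.018, miR-27b-5p to 0.17, miR-181c-5p to -0.23, miR-194-5p to -0.00336 and miR-22-3p to -0.025; exchanging the columns of the sRNAbench table turned let-7d-3p to 0.048, miR-27b-5p to 0.20 and miR-181c-5p to -0.19. miR-181d-5p was 0.0090 with library totals and 0.016 with the let-7 entries summed. miR-125a-3p, at 0.00659, was -0.11 with the Chimira table, -0.00676 with its columns exchanged, -0.11 with the sRNAbench columns exchanged, -0.012 with RLE scaling, -0.00955 with no filter, -0.045 with the stricter filter, -0.013 with DESeq2 (-0.010 with the let-7 entries summed), -0.00207 with the replicate block, -0.042 with the 5 libraries alone and -0.036 without both vector libraries. Leaving out each library, let-7e-5p ranged from -0.14 to 0.019, miR-125a-3p from -0.016 to 0.061, miR-181c-3p from -0.067 to 0.012 and miR-181d-5p from -0.051 to 0.032.

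List medians moved too. The miR-99, miR-100 and miR-125 group had 0.74 with the Chimira table, 0.28 without both vector libraries and 0.30 to 0.73 when each library was left out. The miR-181 family had -0.21 with the Chimira table, -0.19 with the sRNAbench columns exchanged, 0.34 with upper-quartile scaling, 0.046 with no filter, 0.011 with the stricter filter, 0.021 without both vector libraries and 0.04 to 0.22 when each library was left out. The p53-induced list had 0.18 with the Chimira columns exchanged, 0.24 with the sRNAbench columns exchanged, 0.57 with upper-quartile scaling, 0.56 with no filter, 0.29 without both vector libraries and 0.31 to 0.41 when each library was left out. The miR-30 family had -0.24 with the sRNAbench columns exchanged, -0.017 with upper-quartile scaling, -0.26 with the stricter filter, -0.27 without both vector libraries and -0.25 to -0.16 when each library was left out. The miR-17-92 list had -0.00139 with the Chimira table, 0.030 with the sRNAbench columns exchanged and 0.052 with upper-quartile scaling. With upper-quartile scaling the miR-15 and miR-16 list had -0.0069, the list of miR-148 and miR-130 relatives 0.027 and the mesenchymal list 0.00689; leaving out each library gave the miR-15 and miR-16 list -0.30 to -0.13. Depth limits the miRNAs under 10 CPM.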
